A study of Mus musculus with 6 samples.

Results

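Nodal and activin pathway genes were followed by name in mouse embryonic stem cells without DNA methyltransferases. The set held 9 genes, namely Nodal, Tdgf1, Acvr1b, Acvr2b, Lefty1, Lefty2, Cer1, Smad7 and Skil, out of 53390 annotated genes to which the sequenced transcripts were summed and 18177 genes with enough counts to be tested. Of the 9, 8 passed that filter and Cer1 did not. All cells were triple knockout (TKO) embryonic stem cells, null for Dnmt1, Dnmt3a and Dnmt3b, of the male J1 line from the 129S4/SvJae strain, so the deletions were shared by both groups and no wild-type cells enter the comparison. The TKO-serum group was grown with 15% FCS and LIF at 500 U/ml. The TKO-2i group was grown in N2B27 medium, with 1000 U/ml LIF and 2 inhibitors, 1 µM PD0325901 against MEK and 3 µM CHIR99021 against GSK3. Each group had 3 libraries, described by the submitters as biological replicates, made by poly(A) selection from 500 ng of total RNA.

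Nodal and activin are secreted ligands of the TGF-beta family that bind type II and type I serine/threonine kinase receptors, and Nodal also needs a co-receptor of the Cripto family. The receptors phosphorylate Smad2 and Smad3, which enter the nucleus with Smad4 and act with DNA-binding partners such as Foxh1. Lefty1 and Lefty2 are induced by the same signal and restrain it from outside the cell, whereas Smad7 and Skil restrain it inside, and embryonic stem cells are known to produce both the ligand and the Lefty antagonists.

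The libraries held between 38274042 and 51932739 estimated counts, with a median of 44504125. Dnmt1 RNA was present in every library, at 29.1, 34.6 and 29.3 TPM (transcript share scaled to a fixed total, after correction for length) in TKO-2i replicates 1 to 3 and at 25.7, 28.6 and 27.9 TPM in TKO-serum. Dnmt3a stood at 4.30, 5.19 and 4.54 TPM in TKO-2i and at 21.3, 23.0 and 22.7 TPM in TKO-serum, and Dnmt3b at 6.71, 9.53 and 8.49 against 18.8, 20.9 and 20.7 TPM. RNA summed over a whole gene does not show whether part of it is deleted, so these values neither bear out nor contradict the genotype label. The pluripotency gene Pou5f1 was abundant in all libraries, at 1057, 982 and 1012 TPM in TKO-2i and 1249, 1249 and 1253 TPM in TKO-serum. No library repeated another: the chi-square per gene between replicates, which is near 1 for counting noise alone, lay between 4.69 and 45.0. TKO-2i replicate 2 stood apart within its group, with a chi-square per gene of 45.0 against replicate 1 and 27.4 against replicate 3, beside 7.08 between replicates 1 and 3. Values without TKO-2i replicate 2 are given where they change the call of a member.

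By mean normalised counts, Lefty1 and Skil were lower in TKO-2i by more than 4-fold and Acvr1b was higher by 1.57-fold. The other tested members differed by less than 1.2-fold on that scale. With edgeR (quasi-likelihood, adjusted by Benjamini-Hochberg over all tested genes), 6 of the 8 tested members were called at an adjusted p under 0.05, against 62.5% of all tested genes. Of these, 1 was higher in TKO-2i (31.9% of all tested genes were called in that direction) and 5 were lower (30.6%). With the further requirement of at least a 2-fold difference, 2 members were lower (15.6% of all tested genes) and 0 were higher (7.72%). In normalised counts scaled to library size (CPM), the groups of 6 of the 8 tested members did not overlap, as was the case for 67.5% of all tested genes. The median log2 fold change of the 8 was -0.22, beside 0.01 over all tested genes. A share of called members this close to the share of all genes is no result about the pathway, and the description below is therefore gene by gene. In bulk RNA, fewer cells that express a gene and less of its RNA per cell cannot be told apart.

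**Figure D1:**
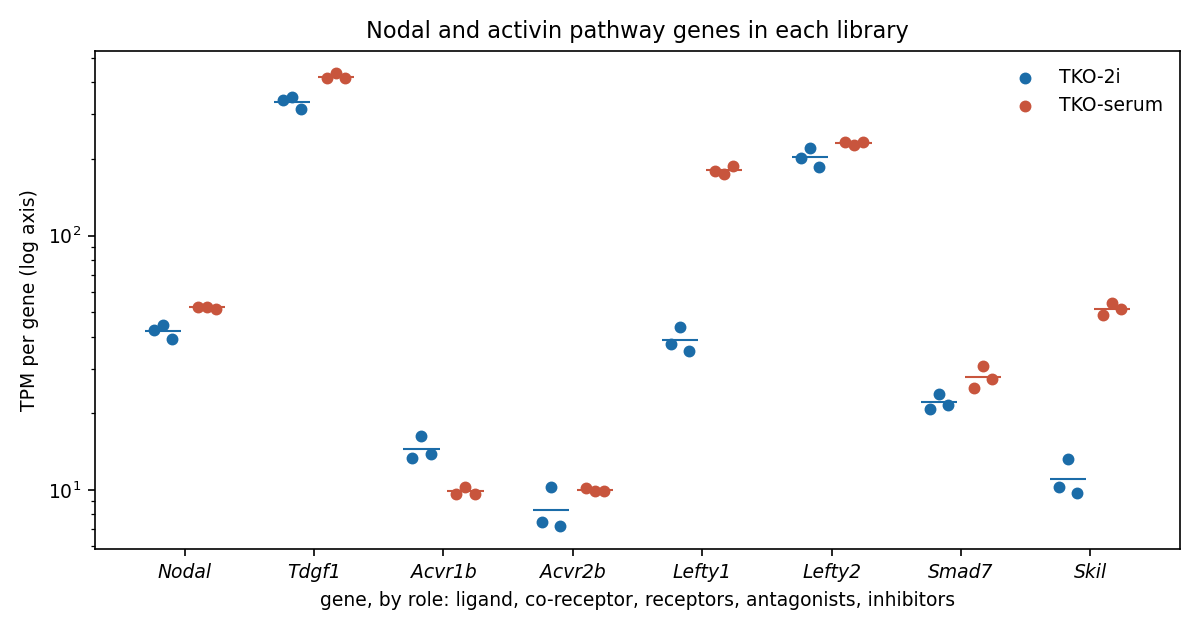
Gene level in TPM (log axis) of the 8 tested members in each of the 3 TKO-2i and 3 TKO-serum libraries; points are libraries and lines are group means. Lefty1 and Skil lie far lower in TKO-2i, Acvr1b lies higher, and Lefty2 differs little between the groups; Cer1, at or near 0, is not drawn.

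Nodal itself, the ligand (ENSMUSG00000037171, chr10:61417972-61425338, forward strand, GRCm38), was expressed from its single annotated transcript at 42.7, 44.7 and 39.3 TPM in TKO-2i and at 52.5, 52.5 and 51.6 TPM in TKO-serum. Every TKO-2i library lay below every TKO-serum library, but the gap was small. The log2 fold change of Nodal was -0.19 with a standard error of 0.07 (adjusted p = 0.035, edgeR quasi-likelihood with Benjamini-Hochberg adjustment). That call was not stable: without TKO-2i replicate 2 the log2 fold change was -0.14 (edgeR adjusted p = 0.076), and over all 14 alternatives the adjusted p ran from 0.0022 to 0.15 and missed 0.05 in 5, all of them with Nodal still lower in TKO-2i. The 3 tested genes whose profile over the 6 libraries was nearest to that of Nodal, among 13997 genes with a mean of at least 1 CPM, were Gprc5c, Map7d1 and Fermt3, at Euclidean distances of 0.0508, 0.0627 and 0.0645 in centred log2 CPM. With a difference as small as that of Nodal, this likeness is a description only.

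Tdgf1 (ENSMUSG00000032494, chr9:110939603-110946158, reverse strand) encodes Cripto, the co-receptor that Nodal requires, and was the most abundant member in both conditions. It stood at 343, 349 and 313 TPM in TKO-2i and at 417, 434 and 415 TPM in TKO-serum. The groups did not overlap, and the log2 fold change was -0.23 with a standard error of 0.05 (edgeR adjusted p = 0.0051). Tdgf1 shares sequence with a processed copy, Tdgf1-ps1 on chromosome 16: of the 1902 different 31-base words in the main transcript Tdgf1-201, 330 (17.4%) also occur in Tdgf1-ps1. Between 1642 and 2419 estimated counts per library were assigned to that pseudogene, beside 17586 to 26599 for Tdgf1, and the division of reads between them is uncertain. Summed with its annotated pseudogenes, Tdgf1 kept its call and direction.

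Acvr1b (ENSMUSG00000000532, chr15:101174067-101213684, forward strand), the type I receptor known as Alk4 that Nodal and activin share, was the member that moved the other way. Its only annotated transcript was at 13.4, 16.2 and 13.8 TPM in TKO-2i and at 9.64, 10.3 and 9.64 TPM in TKO-serum. All 3 TKO-2i libraries exceeded all 3 TKO-serum libraries. In normalised counts the means were 49.8 ± 1.56 and 31.7 ± 0.910 CPM (SD, n = 3 each), a log2 fold change of 0.65 with a standard error of 0.05 (adjusted p = 9e-06, edgeR quasi-likelihood), and the call held in all 14 alternatives.

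The type II receptor gene Acvr2b (ENSMUSG00000061393, chr9:119402118-119434995, forward strand) stood at 7.50, 10.3 and 7.20 TPM in TKO-2i and at 10.2, 9.86 and 9.85 TPM in TKO-serum. TKO-2i replicate 2 reached the TKO-serum level while the other TKO-2i libraries lay below it, so the groups overlapped. Acvr2b was not called (log2 fold change -0.22, standard error 0.09, edgeR adjusted p = 0.058). Without TKO-2i replicate 2 its log2 fold change was -0.30 (edgeR adjusted p = 0.004). Over its 14 alternatives the adjusted p ran from 0.004 to 0.2 and passed 0.05 in 5. The replicate block was among these (log2 fold change -0.22, edgeR adjusted p = 0.041). Measured per length, the ratio of Acvr1b to Acvr2b was 1.79, 1.58 and 1.92 in TKO-2i and 0.950, 1.04 and 0.979 in TKO-serum. RNA of the type I receptor thus exceeded that of this type II receptor in TKO-2i, and was about level with it in TKO-serum.

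The paralogous antagonists Lefty1 and Lefty2, secreted proteins that bind Nodal or its co-receptor and block receptor activation, differed from one another in response. Lefty1 (ENSMUSG00000038793, chr1:180935022-180938400, forward strand) stood at 37.5, 43.5 and 35.3 TPM in TKO-2i and at 180, 174 and 188 TPM in TKO-serum. Lefty2 (ENSMUSG00000066652, chr1:180893108-180899103, forward strand) stood at 203, 221 and 187 TPM in TKO-2i and at 234, 226 and 233 TPM in TKO-serum. The Lefty1 groups were far apart, with the lowest TKO-serum library at 174 and the highest TKO-2i library at 43.5 TPM, whereas the Lefty2 groups lay close together and overlapped in CPM. For Lefty1 the log2 fold change was -2.16 with a standard error of 0.08 (adjusted p = 1.6e-07, edgeR quasi-likelihood), a level 4.48-fold higher in TKO-serum. For Lefty2 it was -0.03 with a standard error of 0.06 (edgeR adjusted p = 0.64). On the TPM scale, limma gave Lefty2 a log2 fold change of -0.19 (adjusted p = 0.04). In limma on log2(TPM + 1) the median over all tested genes was -0.06, beside 0.01 in edgeR. Effective length enters TPM, and its shortfall from transcript length was read over long transcripts only, a set without Lefty2-201 at 2473 bases. The median shortfall was 183 to 201 bases in TKO-2i and 159 to 178 bases in TKO-serum. The spread within a library was far wider, with quartiles of -325.5 and 956.3 bases in TKO-2i replicate 1. The part of effective length, or of the shift over all genes, in the Lefty2 value was not tested.

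The 2 responses can be set against each other within a library. Lefty1 amounted to 0.185, 0.197 and 0.189 of the Lefty2 level in TKO-2i and to 0.771, 0.769 and 0.807 in TKO-serum, both in TPM. The ratio was 4.11-fold lower in TKO-2i. By a two-sided exact permutation test p was 0.1, the smallest that 3 against 3 libraries can give. It was 0.1 too after Benjamini-Hochberg adjustment over the 6 ratios computed, which were chosen after the values were seen. The ratio of Lefty2 to Nodal, 1.09-fold higher in TKO-2i, gave the same p. The test thus does not tell a large difference from a small one. Relative to the ligand, Lefty1 stood at 0.878, 0.975 and 0.897 times Nodal in TKO-2i and at 3.43, 3.32 and 3.64 times Nodal in TKO-serum. Lefty2 remained in excess of Nodal throughout, at 4.75, 4.94 and 4.75 times in TKO-2i and 4.45, 4.31 and 4.52 times in TKO-serum.

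Because the Lefty genes resemble each other, the assignment of reads between them was examined on the sequences. Of 1590 different 31-base words in the main transcript Lefty1-201, 398 (25%) also occur in Lefty2, and these make up 16.3% of the 2443 words of Lefty2-201. The remaining words separate the genes, although reads from the shared stretches can only be divided by estimate. With the counts of both genes summed, the log2 fold change was -0.52 with a standard error of 0.06 (edgeR adjusted p = 0.00011). The divergence of the 2 transcripts is visible at the start of the coding sequence, where the RT-qPCR primers that the study used for Lefty2 lie, and these are shown with the matching stretch of Lefty1 because they mark where the paralogues can be told apart. The forward primer covers the start codon in exon 1 of Lefty2 (chr1:180893184-180893205, forward strand, GRCm38) and corresponds to chr1:180935110-180935131 in Lefty1. The reverse primer binds further into the same exon (chr1:180893258-180893279, reverse strand) and corresponds to chr1:180935184-180935205. With both primers in exon 1 of this annotation the pair spans no intron, whereas the study's primer list describes such pairs as crossing one. Capitals mark the bases at which Lefty1 differs from the primer.
Lefty2 forward primer: atgaagtccctgtggctttgct
Lefty1 at the same place: atgCCAtTcctgtggctCtgct
Lefty2 reverse primer: cagtagactgctcaggacctgt
Lefty1 at the same place, read on the reverse strand: cagCagGctgcCcaggaTctgC
Each primer matched Lefty2-201 with 0 mismatches and its best place in Lefty1-201 with 5 mismatches, and no transcript of another gene held either primer in full.

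Both transcripts annotated for Lefty1 were lower in TKO-2i. The protein-coding Lefty1-201 was at 32.8, 37.8 and 30.4 TPM in TKO-2i and at 171, 163 and 174 TPM in TKO-serum, a ratio of means of 5.03. The intron-retaining Lefty1-202 was at 4.65, 5.73 and 4.91 TPM against 9.19, 11.1 and 13.7 TPM, a ratio of 2.22. Its share of Lefty1 was accordingly larger in TKO-2i, at 12.4%, 13.2% and 13.9%, than in TKO-serum, at 5.1%, 6.37% and 7.26%. Shares of transcripts rest on the same estimate that divides shared reads, and were not tested.

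Lefty2 and Lefty1 lie on the same strand of chromosome 1, separated by 35918 bases.

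Cer1 (ENSMUSG00000038192, chr4:82881751-82885148, reverse strand), a secreted antagonist of Nodal and BMP made in anterior visceral endoderm of the embryo, was at or near 0 in both conditions. It had 0, 0 and 2 estimated counts in TKO-2i and 5, 2 and 0 in TKO-serum. Against a floor of 3 counts, which corresponds to 0.0564 to 0.0778 CPM in these libraries and covers counting error only, TKO-serum replicate 1 alone lay above it. A difference in Cer1 was not detectable at this depth, and no fold change is given.

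Skil (ENSMUSG00000027660, chr3:31095058-31122577, forward strand) encodes SnoN, which binds Smad complexes and represses their targets. Its level was 10.3, 13.2 and 9.69 TPM in TKO-2i and 48.7, 54.3 and 51.5 TPM in TKO-serum. Replicate 2 was the highest TKO-2i library and still lay far under the lowest TKO-serum library. The log2 fold change of Skil was -2.14 with a standard error of 0.09 (adjusted p = 3.3e-07, edgeR quasi-likelihood), or 4.40-fold higher in TKO-serum, and it was -2.24 without TKO-2i replicate 2. Both abundant protein-coding transcripts were lower in every TKO-2i library. Skil-204 was at 7.68, 8.36 and 7.52 TPM in TKO-2i against 28.6, 33.5 and 34.1 TPM in TKO-serum, a ratio of means of 4.08. Skil-201 was at 2.52, 4.74 and 2.15 against 19.8, 20.5 and 16.8 TPM, a ratio of 6.07. The share of Skil-201 in the gene was 24.6%, 36.0% and 22.2% in TKO-2i and 40.7%, 37.7% and 32.6% in TKO-serum, so the groups overlapped, and a difference between the transcripts was not tested.

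Smad7 (ENSMUSG00000025880, chr18:75367529-75395935, forward strand), an inhibitory Smad that occupies activated receptors and recruits ubiquitin ligases to them, changed far less than Skil. It stood at 20.8, 23.8 and 21.6 TPM in TKO-2i and at 25.1, 30.6 and 27.4 TPM in TKO-serum. The groups were apart by a small margin, with a log2 fold change of -0.25 and a standard error of 0.05 (edgeR adjusted p = 0.0015). Smad7 amounted to 2.02, 1.81 and 2.23 times Skil in TKO-2i and to 0.517, 0.564 and 0.532 times Skil in TKO-serum, on the TPM scale. The order of these inhibitors by level was thus inverted between the conditions.

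Ordered by mean TPM, the members in TKO-2i ran from Tdgf1 through Lefty2, Nodal, Lefty1, Smad7, Acvr1b, Skil and Acvr2b to Cer1, and neighbours overlapped for Nodal with Lefty1 and for Skil with Acvr2b. In TKO-serum the order was Tdgf1, Lefty2, Lefty1, Nodal, Skil, Smad7, Acvr2b, Acvr1b and Cer1, with overlap between Nodal and Skil and between Acvr2b and Acvr1b.

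The other genes of the Nodal, activin and TGF-beta branch were taken as a list of 49, of which 44 were tested. Of these, 18 were called higher in TKO-2i (31.9% of all tested genes were) and 14 lower (30.6%), and 12 were not called. At 2-fold or more, 5 were higher (7.72% of all tested genes) and 8 lower (15.6%). With 62.5% of all tested genes called, these counts are no result about the list as a whole. Their median log2 fold change was 0.11 and their range -4.65 to 2.81, beside a median of 0.01 for all tested genes. Mstn, Inhba, Tgfb3, Acvr1c and Lhx1 had too few counts for the test.

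Among the other ligands, Gdf1, a Vg1 relative that works with Nodal, had 38, 28 and 59 estimated counts in TKO-2i and 365, 453 and 416 in TKO-serum. The groups were well separated (log2 fold change -3.24, standard error 0.21, edgeR adjusted p = 3.3e-06), with the reservation that Gdf1 is known to share a transcription unit with Cers1 and reads of the 2 genes may not be separable. Inhbc, encoding an inhibin beta chain, had 3, 2 and 1 counts in TKO-2i and 50, 61 and 55 in TKO-serum, a 26.4-fold ratio of summed, depth-corrected counts with an exact 95% counting interval of 11.9 to 73.0. Tgfb2 went the other way at a low level, with 53, 31 and 40 counts against 18, 19 and 19 (log2 fold change 1.20, standard error 0.26, edgeR adjusted p = 0.0036). The 2 tested genes for proprotein convertases, which cleave the Nodal precursor, were both called higher in TKO-2i, as were 31.9% of all tested genes, by 0.73 and 0.85 on the log2 scale.

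Cfc1, the second co-receptor of the Cripto family, had 7, 4 and 3 counts in TKO-2i and 14, 32 and 30 in TKO-serum. Those groups did not overlap (log2 fold change -2.33, standard error 0.39, edgeR adjusted p = 0.00089), although the counts were few. Tgfbr2, the type II receptor for TGF-beta, was at 0.906, 0.895 and 0.661 TPM in TKO-2i and at 0.221, 0.241 and 0.252 TPM in TKO-serum (log2 fold change 1.82, standard error 0.18, edgeR adjusted p = 3.6e-05). Fstl3, an activin-binding antagonist, was at 0.712, 0.849 and 0.653 TPM against 2.46, 2.58 and 2.30 TPM (log2 fold change -1.45, standard error 0.13, edgeR adjusted p = 2e-05). Each TKO-2i library lay below each TKO-serum library for Fstl3. Of the 4 extracellular antagonists tested from the list, Fstl3 was the only 1 called lower, 1 was called higher and 2 were not called, beside 30.6% lower and 31.9% higher among all tested genes. The 8 further intracellular inhibitors ranged from -0.91 to 0.30, with 4 called lower and 2 higher (30.6% and 31.9% of all tested genes were), and none reached the difference seen for Skil.

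Of 6 tested effectors of the pathway, 4 were called higher in TKO-2i, 1 lower and 1 was not called. Among all tested genes, 31.9% were called higher and 30.6% lower. Smad3 was at 7.05, 8.58 and 6.93 TPM in TKO-2i and at 3.84, 5.01 and 3.75 TPM in TKO-serum, and Foxh1 at 60.4, 65.2 and 62.2 against 38.3, 40.8 and 36.6 TPM. Both lay higher in each TKO-2i library, with log2 fold changes of 0.98 for Smad3 (standard error 0.06, edgeR adjusted p = 1.9e-06) and 0.79 for Foxh1 (standard error 0.07, edgeR adjusted p = 1.7e-05). Smad2 was at 23.8, 27.4 and 23.6 TPM in TKO-2i and at 30.6, 30.6 and 30.2 TPM in TKO-serum (log2 fold change -0.16, standard error 0.05, edgeR adjusted p = 0.012). Smad2 was thus slightly lower in TKO-2i. Without TKO-serum replicate 1 its log2 fold change was -0.15 and the call was lost (edgeR adjusted p = 0.062, over a range of 0.0051 to 0.062 in its alternatives). Smad4 was higher by 0.20 with a standard error of 0.05 (edgeR adjusted p = 0.0066), and limma on TPM gave 0.09 (adjusted p = 0.32, in a range of 0.0021 to 0.32).

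**Figure D2:**
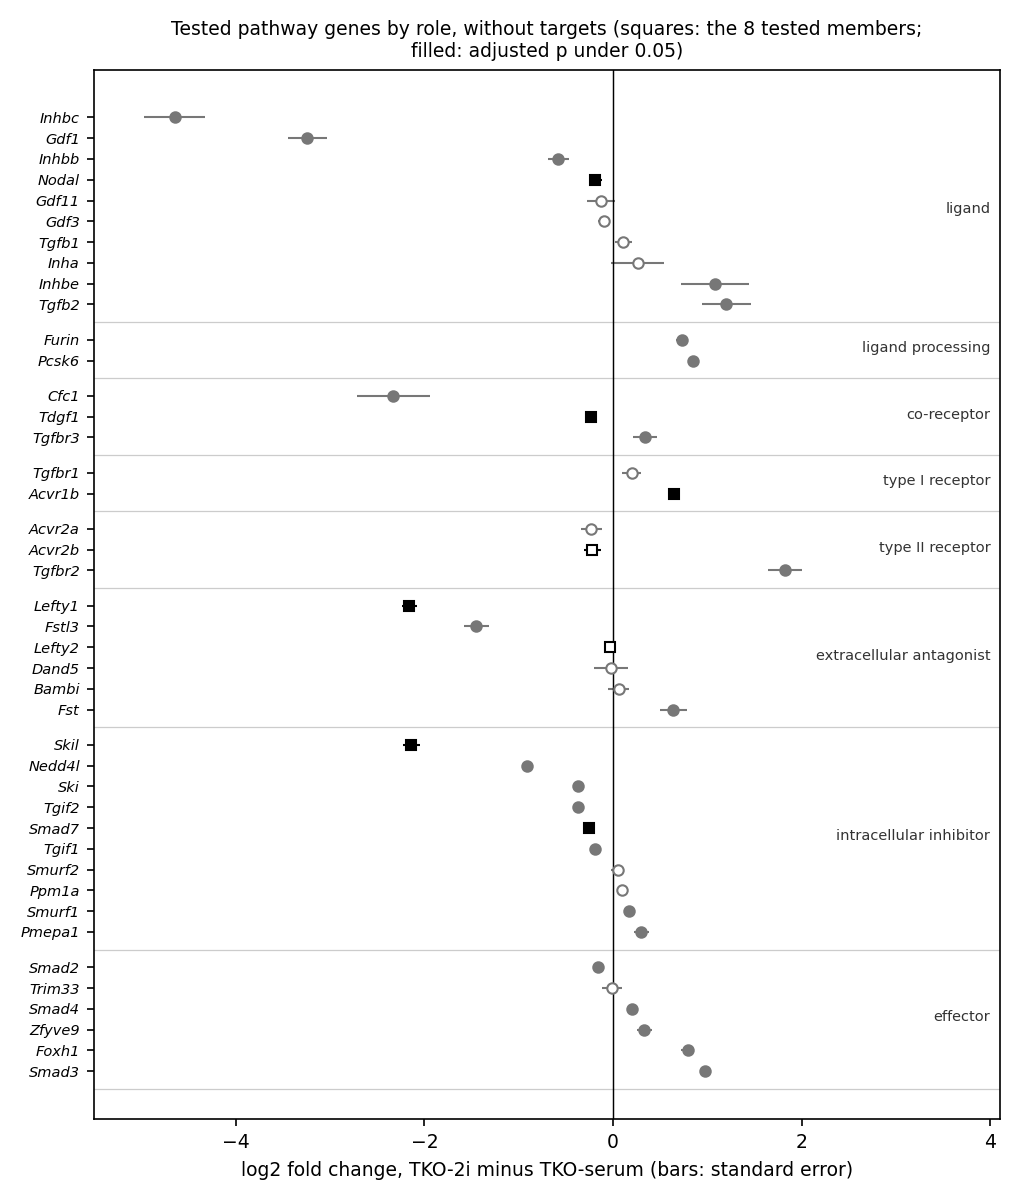
Log2 fold change (TKO-2i minus TKO-serum, bars are standard errors) of the 8 tested members (squares) and of tested list genes (circles), grouped by role, with targets not drawn; filled symbols have an adjusted p under 0.05. Lefty1 and Skil stand at -2.16 and -2.14, and the other intracellular inhibitors lie between -0.91 and 0.30.

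Of 10 tested genes known to respond to Nodal or activin in embryos or embryonic stem cells, 5 were called higher in TKO-2i and 4 lower, beside 31.9% and 30.6% of all tested genes, and a split in both directions is also what all tested genes gave. Eomes, a T-box factor of the primitive streak, was at 5.68, 6.37 and 5.53 TPM in TKO-2i and at 0.834, 0.999 and 0.952 TPM in TKO-serum (log2 fold change 2.81, standard error 0.08, edgeR adjusted p = 6.3e-08). Gsc, an organiser homeobox gene, was at 4.50, 4.91 and 3.81 against 1.12, 0.714 and 1.07 TPM (log2 fold change 2.36, standard error 0.20, edgeR adjusted p = 1.6e-05). Both were thus several-fold higher in all TKO-2i libraries. In contrast, Otx2, a homeobox gene of the epiblast and forebrain, was at 3.20, 3.24 and 3.00 TPM in TKO-2i and at 26.1, 28.7 and 27.2 TPM in TKO-serum (log2 fold change -3.01, standard error 0.06, edgeR adjusted p = 1.6e-08). The Otx2 groups lay far apart. Fgf8 had 11, 17 and 6 counts in TKO-2i and 83, 94 and 82 in TKO-serum (log2 fold change -2.86, standard error 0.28, edgeR adjusted p = 4.1e-05). Foxa2 had 0, 3 and 3 against 13, 20 and 14 counts, a 7.48-fold ratio of summed, depth-corrected counts with an exact 95% counting interval of 3.19 to 21.4.

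Markers of other cell types were read in the same libraries. The 12 markers of primitive or visceral endoderm, whose cells can also express Cer1 and Lefty1 in the embryo, summed to 16.4, 18.5 and 16.6 TPM in TKO-2i and to 29.5, 33.6 and 35.1 TPM in TKO-serum, Hhex being the most abundant. Of 11 tested, 8 were called lower in TKO-2i and 1 higher, beside 30.6% and 31.9% of all tested genes, and their median was -2.50, beside 0.01 over all tested genes. Most tested genes of this list were thus lower in TKO-2i, as were Lefty1 and Skil. Hhex itself was about level, at 8.69, 8.70 and 8.39 TPM in TKO-2i and 8.64, 9.35 and 8.66 TPM in TKO-serum, while the largest difference was that of Cubn, with 6, 10 and 8 counts in TKO-2i and 802, 1246 and 1073 in TKO-serum. Dab2 had 28, 32 and 30 counts against 506, 785 and 655, and Afp, which was not tested, had 2, 3 and 1 against 9, 9 and 9. These 3 genes were scarce in TKO-2i and higher in every TKO-serum library, and they were singled out after the values were seen. Hnf4a, the gene of this list called higher, had 276, 279 and 300 counts in TKO-2i and 133, 150 and 137 in TKO-serum. Gata4 was not called (edgeR adjusted p = 0.26). The part of primitive or visceral endoderm cells in the Lefty1 and Skil differences was not tested. The 8 primitive streak and mesendoderm markers, led by Eomes, summed to 12.8, 13.9 and 12.1 TPM in TKO-2i and to 4.17, 4.84 and 4.90 TPM in TKO-serum, and 2 of 6 tested were called higher and 1 lower. Eomes, Gsc, Mixl1, Lhx1 and Foxa2 belong to that list and to the targets, and Foxa2 to the endoderm list too. The 8 fibroblast markers summed to 5.99 to 6.79 TPM in TKO-2i and 6.48 to 7.06 TPM in TKO-serum, led by Thy1, with 1 of 4 tested higher and 2 lower. All 8 pluripotency markers were tested, summing to 4756 to 5242 TPM in TKO-2i and 5682 to 6022 TPM in TKO-serum, led by Dppa5a, with 2 called higher and 3 lower. The counts of these last 3 lists stand beside 31.9% of all tested genes called higher and 30.6% called lower, and no list was tested as a set.

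Promoters from RefSeq (GRCm38.p6) were at hand for 5 of the 9 members, namely Nodal, Tdgf1, Acvr1b, Acvr2b and Cer1, each as 250 bases before to 50 bases after the start. They were not at hand for Lefty1, Lefty2, Smad7 and Skil. The letters AATCCACA, a Foxh1 motif, were searched on both strands and occurred in none of the 5 windows, against 0.855% of all 32851 promoter windows of that length. The Smad motif CAGACA occurred once, in Cer1 at position -213 (21% of all windows hold it), and the GC-rich Smad motif GGCGCC once, in Acvr1b at position 18 (11.9%). Since the cells lack DNA methyltransferases, the CG dinucleotides were counted as well. The 250 upstream bases held 3 in Nodal, 7 in Tdgf1, 42 in Acvr1b, 24 in Acvr2b and 5 in Cer1, beside a median of 6 over all promoters. The upstream bases of Nodal (chr10:61417722-61417971, forward strand) and Acvr1b (chr15:101173822-101174071, forward strand) are shown, with CG dinucleotides in capitals. These genes differ most in CG count and were called in opposite directions, although the call of Nodal was not stable. Acvr2b, with 24 CG dinucleotides and not called, had a log2 fold change of -0.22, beside -0.23 for Tdgf1 with 7. A link between CG count and response was not tested.
Nodal: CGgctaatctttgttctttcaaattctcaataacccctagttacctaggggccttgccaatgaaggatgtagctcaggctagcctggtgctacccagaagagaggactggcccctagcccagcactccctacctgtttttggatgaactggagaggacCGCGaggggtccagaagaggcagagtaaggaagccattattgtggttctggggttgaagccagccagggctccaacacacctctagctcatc
Acvr1b: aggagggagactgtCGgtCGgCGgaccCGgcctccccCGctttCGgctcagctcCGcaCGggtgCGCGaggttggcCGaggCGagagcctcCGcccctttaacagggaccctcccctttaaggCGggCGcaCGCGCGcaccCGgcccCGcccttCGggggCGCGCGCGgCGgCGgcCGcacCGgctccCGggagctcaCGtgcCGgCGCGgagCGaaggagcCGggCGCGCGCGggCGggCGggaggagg
Acvr1b held more CG dinucleotides than 99.1% of all promoter windows and Nodal more than 29%. A match or its lack describes these letters only.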

How the data were processed

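RNA of 3 TKO-2i and 3 TKO-serum cultures was sequenced from stranded, poly(A)-selected libraries. The authors deposited, per transcript, estimated counts (reads shared between transcripts are divided, so values need not be whole) and TPM scaled by effective length. The build is mm10 per the submitters' processing notes. The file columns are those of salmon, but the quantifier, its version and its index are not given in the sources used here, and the RNA sequencing methods of the study describe other programs.

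Deposited estimated counts and deposited TPM were summed per gene with GENCODE M21 names: 136100 of 136288 transcripts matched, leaving out at most 0.0643% of counts. Summed counts were rounded and tested in edgeR 4.0.16 (R 4.3.3) with filterByExpr, TMM and the quasi-likelihood test on condition alone. Benjamini-Hochberg adjustment covered all 18177 tested genes. Log2 fold changes are TKO-2i minus TKO-serum; the standard error is the absolute log2 fold change over the square root of F. CPM values use TMM. On simulated counts, edgeR on condition alone recovered 70 of 100 genes changed by 1 on the log2 scale. It recovered 98 of 100 changed by 2, with 17 false calls over all genes. The simulation changed a far smaller share of genes than was called in the data, so it does not test that situation. Members and lists were chosen with earlier results of these data known. Pathway genes given by name with their values were the 9 members, Smad2, Smad3, Smad4, Foxh1 and some list genes. Those list genes had an adjusted p under 0.05, an absolute log2 fold change of at least 1 and groups apart in CPM. Not every list gene that met this is described.

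Alternatives were a replicate block, DESeq2 1.42.0, its size factors in edgeR, no filter, limma 3.58.1 on log-scaled TPM with a pseudocount of 1 or 0.1, length-scaled TPM turned to counts, a minimum of 10 counts in all samples, leaving out each library, and sums with similar genes.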

Additional observations from a re-analysis of the deposited data

How the results depend on the processing

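The count of genes called was 11361 and lay between 9804 and 12568 over all alternatives. In limma on log2(TPM + 1) 4209 genes were higher and 5839 lower, against 5804 and 5557 in the main fit. With length-scaled TPM turned to counts in edgeR, 5569 were higher and 5414 lower. The split set beside the lists thus depends on the setting, and which part of the limma setting moved it was not tested. Members called were 6 and lay between 5 and 7, and list genes called were 32 and lay between 26 and 35. No called difference of a member or of a list gene given by name reversed, and Lefty2, which was not called, reached 0.00 in 2 alternatives. The calls of Lefty1, Skil, Acvr1b, Smad7 and Tdgf1 held in each alternative run for them, with log2 fold changes from -2.24 to -2.08 for Skil and from -2.23 to -0.52 for Lefty1, the last being the sum with Lefty2. The small differences of Nodal, Acvr2b, Lefty2, Smad2 and Smad4 crossed the threshold in at least 1 alternative. Genes called at 2-fold or more were 4242, but 2729 with at least 10 counts in every sample, where fewer genes are tested, and 1746 in limma on log2(TPM + 1), where the pseudocount shrinks low genes; list genes called at 2-fold or more were 13, and 6 in that last setting.

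With the replicate number as a replicate block, 12539 genes, 7 members and 35 list genes were called, the added member being Acvr2b (edgeR adjusted p = 0.041, quasi-likelihood with Benjamini-Hochberg adjustment). Same-numbered libraries deviated together with correlations across genes of 0.242, 0.329 and 0.014, and 5 of the 6 libraries correlated best with their own number, a hint of pairing. The numbers were not taken as pairs because the labels give them no shared origin and 1 of the 3 correlations was not over 0.1. The labels do not say which sequencing pool held each library. Cer1 and the genes with few counts are limited by depth, and their intervals cover counting error only.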
